A study of Mus musculus with 9 samples.

Results

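The genes examined here carry glucose into the cell, break it down to pyruvate, and decide whether pyruvate becomes lactate or enters the mitochondrion. They were chosen by name, as 32 symbols of glucose transporters, glycolytic enzymes, lactate and pyruvate handling enzymes, and their carriers. All 32 names were found among the 54532 genes of the count table. They occupied 33 rows, because a second, low row also bears the name Aldoa, and all 33 rows passed the filter on low counts.

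The neurosensory retinas of 9 wild-type C57BL/6 mice, 3 per group, were taken at P17 for bulk RNA-Seq. Control mice were raised in room air and are labelled as receiving DMSO. OIR mice underwent oxygen-induced retinopathy (OIR), in which hyperoxia stops retinal vessel growth and the return to room air at P12 leaves the inner retina hypoxic. They received 1 intraocular injection of DMSO, the vehicle, at P12. Treated OIR mice went through the same model and received 1 intraocular injection at P12 of 32-134D, an inhibitor of the hypoxia-inducible factors (HIFs), at a dose labelled 70 ng. The OIR model is one of neonatal mice without diabetes, and whole retina was sequenced, so each value averages over every retinal cell type. Nothing beyond the mouse numbers separates the animals of a group in the labels, and litters are not given.

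Glycolysis splits glucose into pyruvate with a small yield of ATP. The retina is known for running it at a high rate even in oxygen, with photoreceptors exporting much of the carbon as lactate. Many of its steps have several enzymes encoded by separate genes, with a ubiquitous form and forms favored by neurons, muscle, or other tissues. HIF-1 is known to raise the transcription of many of these genes in low oxygen, by binding DNA at hypoxia response elements with the core ACGTG or GCGTG. Among its textbook targets are Slc2a1, Hk2, Pgk1, Ldha, Pdk1, Pfkfb3, Pfkfb4, and Slc16a3.

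The HIF core is common upstream of these genes. RefSeq start sites on GRCm38.p6 were matched for 30 of the 32 names, and Slc2a3 and Slc16a7 had no entry. At least 1 core, ACGTG or GCGTG on either strand, lay within 250 bases upstream of a start site in 27 of the 30. By window, 37 of 47 (78.7%) held a core, beside 38.6% of all 32851 windows and 53.2% of the 14742 windows of protein-coding genes that were tested. Such a match is a stretch of letters and was not tested for binding. The 4 windows printed here, 5′ to 3′ on the gene's own strand and ending at the base before the start site, contrast both lactate dehydrogenases, a kinase that HIF-1 is known to induce, and 1 of the members that fell in OIR. Capitals mark each core, on either strand, and CACGTG, which reads the same on both strands, holds 2 overlapping cores. The windows lie at chr7:46845554-46845803 on the plus strand (Ldha, the first of 2 starts), chr6:142507958-142508207 on the minus strand (Ldhb), chr2:71872974-71873223 on the plus strand (Pdk1, the first of 2 starts), and chr15:98092339-98092588 on the plus strand (Pfkm, the first of 4 starts).
Ldha: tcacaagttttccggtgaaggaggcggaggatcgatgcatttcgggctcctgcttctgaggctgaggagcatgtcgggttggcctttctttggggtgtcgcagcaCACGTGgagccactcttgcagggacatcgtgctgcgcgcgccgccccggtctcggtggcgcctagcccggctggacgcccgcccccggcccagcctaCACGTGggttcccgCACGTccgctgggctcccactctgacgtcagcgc
Ldhb: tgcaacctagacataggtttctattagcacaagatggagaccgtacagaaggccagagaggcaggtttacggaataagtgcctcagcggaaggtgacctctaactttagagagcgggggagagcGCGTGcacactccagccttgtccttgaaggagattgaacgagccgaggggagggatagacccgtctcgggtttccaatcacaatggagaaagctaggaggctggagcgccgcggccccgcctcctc
Pdk1: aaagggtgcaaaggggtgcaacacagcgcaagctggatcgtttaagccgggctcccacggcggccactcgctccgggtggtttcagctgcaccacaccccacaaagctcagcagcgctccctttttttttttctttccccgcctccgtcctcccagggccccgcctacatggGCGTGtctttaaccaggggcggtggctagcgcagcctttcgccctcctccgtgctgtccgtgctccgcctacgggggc
Pfkm: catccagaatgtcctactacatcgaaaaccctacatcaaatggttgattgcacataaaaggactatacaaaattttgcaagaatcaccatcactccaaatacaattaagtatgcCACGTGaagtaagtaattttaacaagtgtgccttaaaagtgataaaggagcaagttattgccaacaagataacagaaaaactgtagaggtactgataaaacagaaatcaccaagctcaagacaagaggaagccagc
With overlaps counted separately, Ldha held 5 cores, Ldhb 1, Pdk1 1, and Pfkm 2. The Pfkm window had a GC content of 36.4%, whereas the others had 56.4% to 67.2%. Cores were thus present upstream of genes whose mRNA was lower in OIR as well as of those that were not.

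Sequencing gave 16028731 to 27213184 counts per mouse, and these genes took 2.11% to 2.57% of them. Levels are given as CPM (counts scaled to a fixed library size) after TMM scaling and, between genes, as CPM per kb of the gene length in the table. Sums over marker genes are the exception, being CPM of total counts without TMM scaling. Treated mouse 2 stood apart. Crystallin genes, which encode lens proteins, took 15.8% of its counts and 0.00871% to 0.186% of those of the other 8 mice, and 7 lens markers summed to 84400 CPM in it and at most 727 CPM elsewhere. Relative to the control mean, the median log2 difference of the 33 rows was 0.31 in treated mouse 2 and between −0.13 and 0.19 in the other mice. Results of the treated group that it moves most are therefore given with and without it, and the part of lens RNA in them was not tested.

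**Figure D1:**
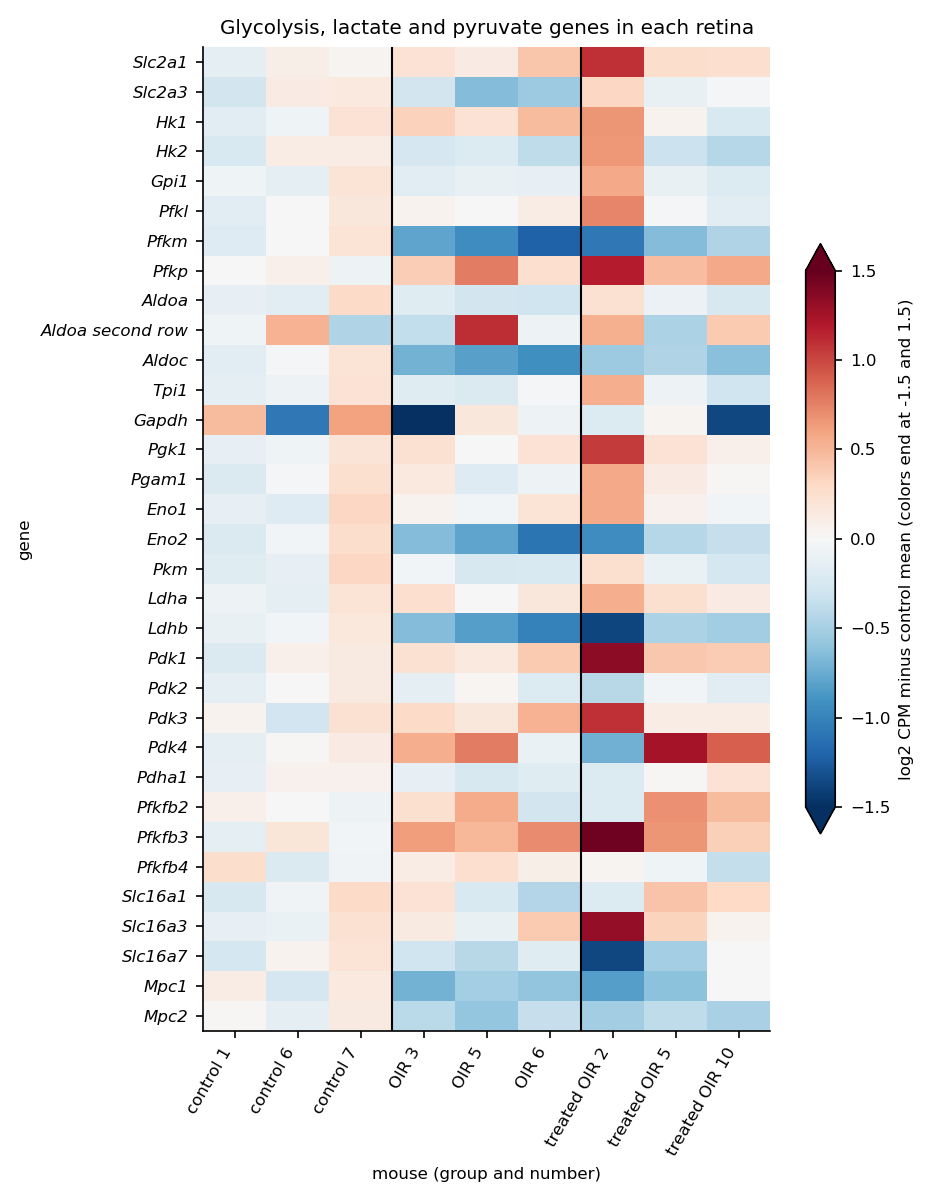
Level of each of the 33 rows (vertical axis) in each of 9 mice (horizontal axis), colored by log2 CPM minus the mean of the 3 control mice, with black lines between groups. Aldoc, Pfkm, Eno2, Ldhb, and Mpc2 are blue in all 6 OIR and treated OIR mice, and treated mouse 2 is the darkest red for Slc2a1, Pgk1, Pdk1, Pfkfb3, and Slc16a3.

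Per kb of gene length, the control retina contained these mRNAs over a wide range. Aldoa, the ubiquitous aldolase, had the highest mean level at 1210 ± 217 CPM per kb (SD, n = 3), followed by Pkm (pyruvate kinase) at 769 ± 150, Eno1 (the ubiquitous enolase) at 708 ± 139, and Ldha at 560 ± 73.4. The SDs of Pkm, Eno1, and Ldha overlapped with one another. Pdk4, a pyruvate dehydrogenase kinase known from fasting tissue, was lowest at 0.167 ± 0.0173, below the lactate carrier Slc16a7 at 1.27 ± 0.207. The ubiquitous form led in most families. Ldha made up 79.2% ± 0.85 of the 2 lactate dehydrogenases, Aldoa 83.5% ± 1.12 of the aldolases, Eno1 78.8% ± 1.55 of both enolases, Slc2a1 87.7% ± 0.929 of both glucose transporters, and Hk1 77.8% ± 1.93 of both hexokinases (percent of summed CPM per kb, SD, n = 3). Among phosphofructokinases, Pfkl held 45.6% ± 0.569 and the muscle form Pfkm 40.0% ± 1.39. Gene lengths count every annotated exon, so that long minor transcripts lower a gene's level and share.

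The first comparison, OIR with control, asked how the ischemic retina differed from the normally vascularized one. By edgeR's quasi-likelihood test on all 9 mice, Aldoc and Pfkm fell in OIR and 0 members passed the adjusted threshold as higher. In all, 2 of 33 rows (6.06%) had an adjusted p below 0.05, beside 0.941% of all 17540 genes tested (165 genes). The median log2 fold change was −0.10 over the 33 rows and 0.03 over all genes. At an unadjusted p below 0.05, 7 rows were lower (12.7% of all genes were) and 2 were higher (11.1% of all genes were). Groups did not overlap for 9 lower rows (17.2% of all genes) and 4 higher rows (15.9% of all genes). As shares of the 33 rows, these were 6.06% and 12.1% for higher rows, below those of all genes. For lower rows they were 21.2% and 27.3%, above those of all genes. Whether these shares differ from those of all genes was not tested.

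Aldoc encodes aldolase C, the brain form of the enzyme that splits fructose 1,6-bisphosphate, and lies at chr11:78322968-78327781 on the plus strand (GRCm38). Its level was 690, 759, and 889 CPM in the control mice and 473, 438, and 410 CPM in the OIR mice. Every OIR mouse lay below every control mouse. The level was 1.77-fold lower in OIR (log2 fold change −0.82, SE 0.13, edgeR adjusted p = 0.0407). Aldoa was 3200, 3120, and 4250 CPM in control and 3090, 2890, and 2840 CPM in OIR mice (log2 fold change −0.26, SE 0.18, edgeR adjusted p = 0.406).

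Pfkm encodes the muscle form of phosphofructokinase, which commits sugar to glycolysis, and lies at chr15:98092589-98132451 on the plus strand. Control mice had 192, 220, and 254 CPM and OIR mice 128, 116, and 94.9 CPM. The groups did not overlap, and the level was 1.97-fold lower in OIR (log2 fold change −0.98, SE 0.18, edgeR adjusted p = 0.0485). In the annotation, 359 of its exon bases are shared with neighboring genes, Gm26513 on the same strand and Senp1 on the other. The liver form Pfkl was 447, 504, and 565 CPM in control and 521, 501, and 543 CPM in OIR mice, which overlap.

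The neuronal enolase and the heart-type lactate dehydrogenase had values close to these without passing the adjusted threshold. Eno2, widely used as a neuronal marker, was 760, 860, and 1060 CPM in control and 564, 510, and 413 CPM in OIR mice (log2 fold change −0.85, SE 0.20, edgeR adjusted p = 0.0675). Ldhb, whose subunit favors turning lactate back to pyruvate, was 214, 223, and 256 CPM in control and 147, 130, and 114 CPM in OIR mice (log2 fold change −0.83, SE 0.22, edgeR adjusted p = 0.0845). Neither gene had an OIR mouse within the control range.

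The pyruvate carrier and the neuronal glucose transporter were lower by smaller margins. Mpc2, a subunit of the carrier that brings pyruvate into mitochondria, was 79.7, 71.5, and 86.8 CPM in control and 59.5, 53.1, and 62.0 CPM in OIR mice (log2 fold change −0.45, SE 0.10, edgeR adjusted p = 0.0636). Its partner Mpc1 was 18.9, 14.7, and 19.3 CPM in control and 10.6, 12.2, and 11.5 CPM in OIR mice (log2 fold change −0.62, SE 0.22, edgeR adjusted p = 0.142). Both subunits were separated between the groups. Slc2a3, the high-affinity transporter of neurons, was 95.6, 126, and 128 CPM in control and 95.5, 73.5, and 79.1 CPM in OIR mice (log2 fold change −0.50, SE 0.16, edgeR adjusted p = 0.120), with the highest OIR value just under the lowest control value. Pdha1, the catalytic subunit of pyruvate dehydrogenase, was also separated, at 61.9 to 70.6 CPM in control and 57.2 to 61.7 CPM in OIR mice (log2 fold change −0.19, SE 0.11, edgeR adjusted p = 0.355).

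Among higher values, Pfkfb3, which makes the activator of phosphofructokinase, was 36.9, 46.4, and 39.7 CPM in control and 63.1, 57.4, and 67.3 CPM in OIR mice (log2 fold change 0.61, SE 0.25, edgeR adjusted p = 0.176). Pfkp, the platelet form of phosphofructokinase, was 319, 334, and 303 CPM in control and 410, 543, and 380 CPM in OIR mice (log2 fold change 0.48, SE 0.21, edgeR adjusted p = 0.203). Both were separated, and neither passed the adjusted threshold on all 9 mice. In fits of the 6 control and OIR mice alone, both were called higher by DESeq2 (adjusted p = 0.00236 for Pfkfb3 and 0.0199 for Pfkp), and Pfkfb3 by edgeR. In either direction, these fits called 14.3% (DESeq2) and 10.3% (edgeR) of all genes, and no other member as higher. Pfkp shares 748 exon bases with Pitrm1 on the opposite strand. Hk1, the hexokinase of brain, was 982, 1050, and 1280 CPM in control and 1400, 1280, and 1530 CPM in OIR mice (log2 fold change 0.34, SE 0.22, edgeR adjusted p = 0.386), with the groups meeting at 1280.

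The other textbook HIF-1 targets differed little between OIR and control at P17. Slc2a1, the main glucose transporter of glia and endothelium, was 362, 423, and 411 CPM in control and 462, 434, and 529 CPM in OIR mice (log2 fold change 0.25, SE 0.22). Pdk1, which blocks pyruvate dehydrogenase, was 53.5, 65.6, and 68.5 CPM in control and 73.0, 68.8, and 81.3 CPM in OIR mice (log2 fold change 0.25, SE 0.24). Both were separated by narrow gaps, with edgeR adjusted p of 0.525 and 0.570. Ldha, which makes lactate, was 1750, 1680, and 2130 CPM in control and 2190, 1850, and 2070 CPM in OIR mice (log2 fold change 0.14, SE 0.16). For Pgk1, an ATP-producing kinase, the values were 730, 762, and 913 CPM in control and 936, 792, and 923 CPM in OIR mice (log2 fold change 0.14, SE 0.24). Hk2, Slc16a3 (the carrier that exports lactate), and Pfkfb4 had log2 fold changes of −0.28 (SE 0.26), 0.14 (SE 0.30), and 0.14 (SE 0.18). All of these overlapped between groups except Slc2a1 and Pdk1, and the SEs leave room for modest differences. The remaining rows (Gpi1, Pfkl, Tpi1, Pgam1, Eno1, Pkm, Pdk2, Pdk3, Pdk4, Pfkfb2, Slc16a1, Slc16a7, and the second Aldoa row) overlapped between OIR and control, with an adjusted p of 0.5 or more.

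**Figure D2:**
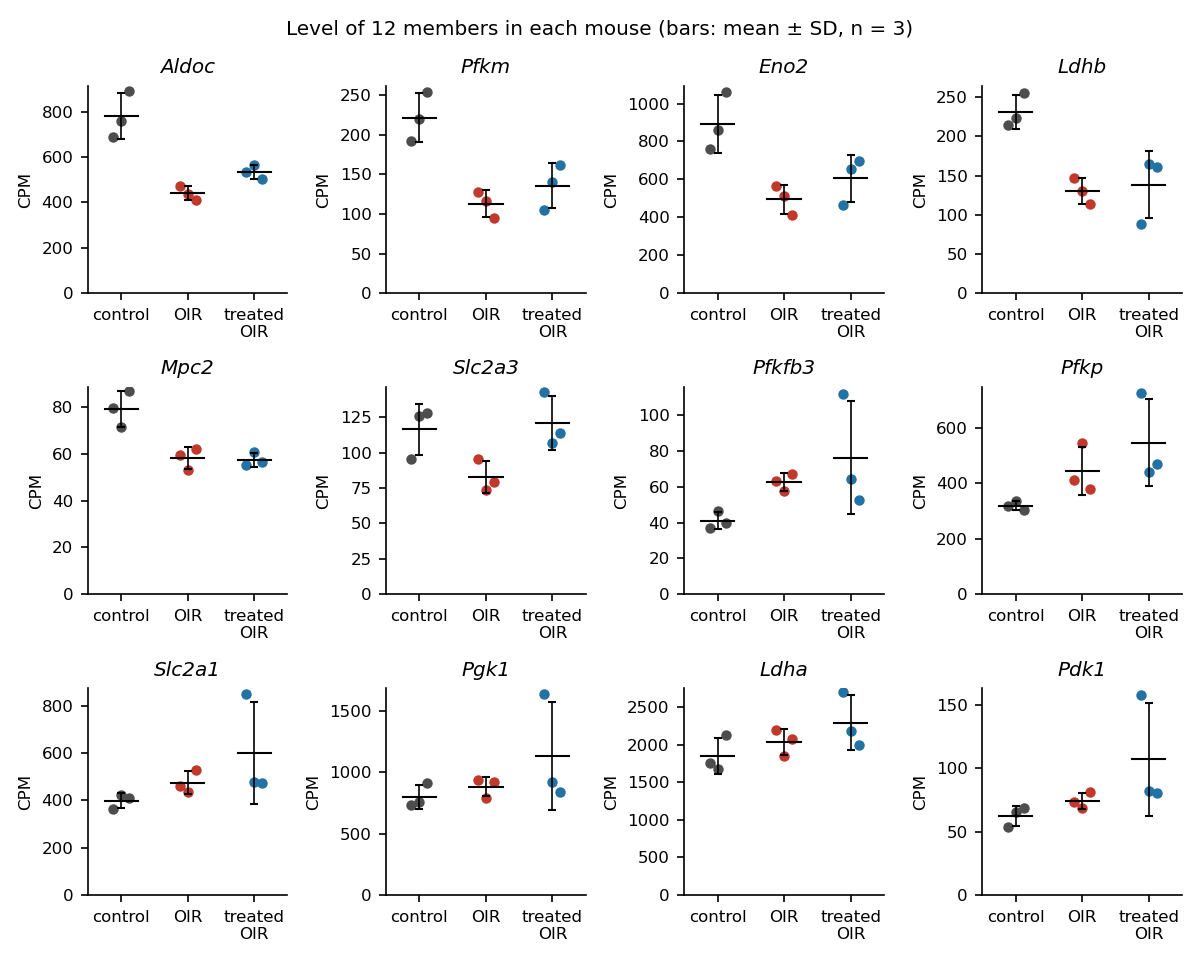
CPM after TMM scaling (vertical axis, from 0) of 12 members in each mouse (points) by group (horizontal axis), with mean ± SD, n = 3. Aldoc spans 690 to 889 CPM in control and 410 to 473 CPM in OIR mice, whereas 1 treated OIR mouse, number 2, lies far above the others for Slc2a1, Pgk1, Pdk1, and Pfkfb3.

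The calls depended on the fit. Aldoc and Pfkm were also called by DESeq2 and by limma-voom, but they lost the call when any control mouse, any OIR mouse, or treated mouse 5 was left out (edgeR adjusted p up to 0.170 for Aldoc and 0.187 for Pfkm), and no gene at all was called in those fits. Both also lost it with scaling by total counts alone, where 0.211% of all genes were called. The same held with sex as a covariate, where no gene was called (0.00%). Without treated mouse 2, which belongs to neither group but enters the filter, the scaling, and the shared spread, 7 members passed the adjusted threshold (Slc2a3, Pfkm, Aldoc, Eno2, Ldhb, Mpc2, and Pfkfb3, the last higher), beside 12.5% of all genes.

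Markers of retinal ganglion and amacrine cells were lower in OIR, as Aldoc, Pfkm, Eno2, and Ldhb were, and other marker lists went either way. Of 5 retinal ganglion cell markers, all 5 were lower in OIR, although none passed the adjusted threshold, with a median log2 fold change of −2.09. Their summed level ranged from 1100 to 1370 CPM in control, 95.5 to 476 CPM in OIR, and 32.7 to 872 CPM in treated OIR mice. The 5 amacrine cell markers, again all lower, summed to 576 to 739 CPM, 188 to 362 CPM, and 108 to 603 CPM in the same order. None of either list was at 0 in any mouse. Treated mouse 2 had the lowest sum of both lists. Marker sums were not TMM-scaled, whereas member values were, with a factor of 0.852 in this mouse, so the scales differ. In treated mouse 2, Aldoc, at 532 CPM, lay above the OIR range, Pfkm (105 CPM) and Eno2 (465 CPM) within it, and Ldhb (88.6 CPM) below it. Müller glia markers summed to 3020 to 3880 CPM in control and 3810 to 4000 CPM in OIR mice, and to 1370 CPM in treated mouse 2. Of these 5 markers, 1 was called higher in OIR. Bipolar cell markers were higher in OIR, at 1260 to 1400 CPM against 977 to 1110 CPM in control mice, with none of 5 lower. Endothelial markers were 331 to 413 CPM against 201 to 220 CPM, with 1 of 5 called higher. The median log2 fold change was 0.49 for 4 horizontal cell, −0.18 for 5 rod, and −0.16 for 5 cone markers. It was 0.90 for 3 astrocyte and 0.39 for 5 microglia markers. All 5 pigment epithelium (−0.64) and all 5 red blood cell markers (−1.55) were lower, as were 3 of 4 pericyte markers (−0.14). The 3 cornea and conjunctiva markers tested were also lower (−0.52), whereas none of 7 lens markers was (1.14). The part of these shifts in the lower Aldoc, Pfkm, Eno2, and Ldhb was not tested, and in whole retina fewer cells of a type and less RNA per cell cannot be told apart.

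Because many of these genes are alternative forms of 1 enzyme, the ratio of both forms within a mouse shows the balance between them free of library scaling. For 12 pairs, the log2 ratio of counts per kb was compared by a two-sided exact permutation test. The pair Mpc2/Mpc1 holds subunits of 1 carrier and not alternative forms. With 3 mice against 3, the smallest p it allows is 0.1, and no adjusted p over all 36 tests was below 0.24, so this test cannot call a ratio. Between OIR and control, 7 of 12 ratios did not overlap, 6 lower and 1 higher in OIR. Of single genes, 17.2% were separated as lower and 15.9% as higher, but no such share was computed for ratios, here or below. Ldhb, Pfkm, Eno2, Aldoc, and Slc2a3, each the numerator of a lower ratio, were already separated as lower by themselves. Their ratios are therefore not separate evidence.

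Ldhb/Ldha was 0.259, 0.279, and 0.253 in the control mice and 0.141, 0.148, and 0.116 in the OIR mice (mean log2 ratio −1.92 ± 0.07 and −2.90 ± 0.19, SD, n = 3, exact permutation p = 0.1). Pfkm/Pfkl was 0.859, 0.871, and 0.899 in control and 0.491, 0.462, and 0.349 in OIR mice. In both pairs the control mice lay close together and well above the OIR mice. Eno2/Eno1 was 0.251, 0.298, and 0.260 in control and 0.165, 0.159, and 0.108 in OIR mice, and Aldoc/Aldoa was 0.193, 0.217, and 0.187 against 0.137, 0.136, and 0.129. Slc2a3/Slc2a1 differed by −0.74 and Hk2/Hk1 by −0.63 in mean log2 ratio, again without overlap. The balance thus lay further toward the ubiquitous form in OIR in the pairs of lactate dehydrogenase, enolase, aldolase, and glucose transporter. The exact p was 0.1 for each of these pairs.

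Pdk1/Pdk2 was the ratio that was higher in OIR, at 0.193, 0.218, and 0.205 in control and 0.263, 0.221, and 0.309 in OIR mice (exact permutation p = 0.1). Pfkp/Pfkl, Pfkfb3/Pfkfb2, Pfkfb4/Pfkfb2, Slc16a3/Slc16a1, and Mpc2/Mpc1 overlapped between OIR and control. Expressed as shares, Ldhb made up 20.8% ± 0.85 of lactate dehydrogenase mRNA in control and 11.9% ± 1.32 in OIR mice, and Pfkm 40.0% ± 1.39 and 23.3% ± 2.75 of phosphofructokinase mRNA (percent of CPM per kb, SD, n = 3).

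**Figure D3:**
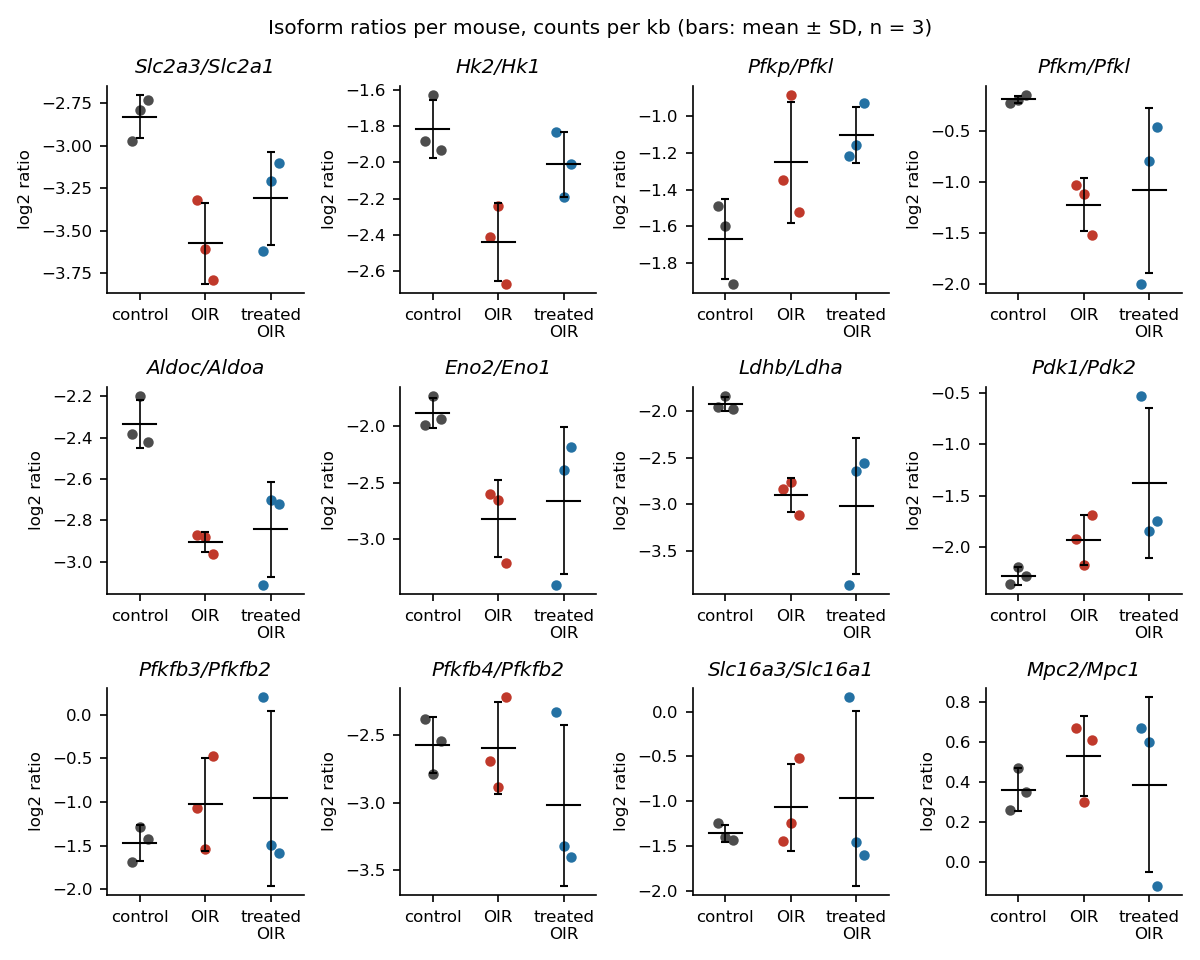
Log2 ratio of counts per kb (vertical axis) in each mouse (points) by group (horizontal axis), for 12 pairs, with mean ± SD, n = 3. Pairs are 2 forms of an enzyme or carrier, except Mpc2/Mpc1, which are 2 subunits of the same carrier. Ldhb/Ldha, Pfkm/Pfkl, Eno2/Eno1, and Aldoc/Aldoa lie lower in every OIR and treated OIR mouse than in any control mouse.

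The second comparison set treated OIR against control. It shares the control mice with the first, so its values are given beside those and not as a repeat. None of the 33 rows had an edgeR adjusted p below 0.05, beside 0.0228% of all genes (4 genes). DESeq2 on all 9 mice called 6 rows (4.66% of all genes) and limma-voom 2 (5.28% of all genes). At an unadjusted p below 0.05, 5 rows were lower (8.60% of all genes) and 4 were higher (10% of all genes), and the same numbers of rows did not overlap, beside 12.2% and 12.8% of all genes. The median log2 fold change was 0.12 over the 33 rows, 0.01 over all genes, and −0.08 over the rows without treated mouse 2.

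Aldoc, Pfkm, and Mpc2 had the smallest p among lower rows. Aldoc was 532, 566, and 502 CPM in treated mice 2, 5, and 10 (log2 fold change −0.55 against control, SE 0.13, edgeR adjusted p = 0.117). Pfkm was 105, 141, and 162 CPM (−0.71, SE 0.18, edgeR adjusted p = 0.135), and Mpc2 55.3, 61.0, and 56.5 CPM (−0.46, SE 0.10, edgeR adjusted p = 0.109). All 9 of these values lay below the control range. Eno2, at 465, 655, and 699 CPM (−0.56, SE 0.20), and Ldhb, at 88.6, 165, and 161 CPM (−0.74, SE 0.22), also lay below it, with treated mouse 2 lowest for both. Without treated mouse 2, the log2 fold changes were −0.54 for Aldoc, −0.54 for Pfkm, −0.43 for Mpc2, −0.39 for Eno2, and −0.49 for Ldhb.

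Among higher rows, Pfkp was 725, 441, and 470 CPM in treated mice 2, 5, and 10 (log2 fold change 0.77 against control, SE 0.21, edgeR adjusted p = 0.143). Pfkfb3 was 112, 64.6, and 52.4 CPM (0.90, SE 0.25, edgeR adjusted p = 0.147), and Pdk1 was 158, 81.9, and 80.7 CPM (0.77, SE 0.25, edgeR adjusted p = 0.178). Each treated mouse exceeded the control range for all 3, with treated mouse 2 by far the highest. Without it, the log2 fold changes were 0.52, 0.52, and 0.39. Slc2a1 was 850, 477, and 474 CPM, and its log2 fold change was 0.59 with treated mouse 2 and 0.26 without it. Pgk1, at 1640, 920, and 838 CPM, went from 0.50 to 0.14, Slc16a3, at 288, 146, and 120 CPM, from 0.66 to 0.20, and Ldha, at 2700, 2180, and 2000 CPM, from 0.31 to 0.18. Of the isoform ratios, 7 of 12 did not overlap between treated OIR and control mice, 5 lower and 2 higher (12.2% and 12.8% of single genes). Without treated mouse 2, 10 of 12 did not overlap, 2 of them higher, beside 17.3% of single genes lower and 18.2% higher.

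The third comparison, treated OIR with OIR, bears on the HIF inhibitor itself. No member was called, and no gene was (0.00% of 17540 by edgeR, DESeq2 on all 9 mice 31 genes and no member). At an unadjusted p below 0.05, 1 row was higher (2.39% of all genes) and 0 were lower (2.30% of all genes). Groups did not overlap for 2 higher rows (3.74% of all genes) and 1 lower row (5.39% of all genes). The median log2 fold change of the 33 rows was 0.23 and that of all genes 0.01, and without treated mouse 2 the median of the rows was 0.06.

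Slc2a3 had the smallest p. It was 143, 107, and 114 CPM in treated mice 2, 5, and 10 against 95.5, 73.5, and 79.1 CPM in the OIR mice, without overlap (log2 fold change 0.55, SE 0.16, edgeR adjusted p = 0.984). The treated values lay in the control range (95.6 to 128 CPM) or, in mouse 2, above it. Aldoc was separated from OIR as well (log2 fold change 0.28, SE 0.13, edgeR adjusted p = 1), its treated values lying between the OIR and the control ranges. Without treated mouse 2, these log2 fold changes were 0.45 for Slc2a3 and 0.31 for Aldoc. Pdk1 followed at 0.52 (SE 0.24) and was 0.16 without treated mouse 2. 

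On the lower side, Pfkfb4, another enzyme that sets the phosphofructokinase activator, was 13.3, 14.6, and 13.0 CPM in OIR and 12.5, 11.7, and 9.56 CPM in treated OIR mice (log2 fold change −0.27, SE 0.18), without overlap. Pdk2 was 113, 126, and 107 CPM in OIR and 92.4, 120, and 110 CPM in treated OIR mice (−0.10, SE 0.12). The lactate carrier Slc16a7 was 12.1, 11.2, and 13.1 CPM in OIR and 5.77, 10.4, and 15.0 CPM in treated OIR mice (−0.22, SE 0.30). The latter groups overlapped, the lowest treated value of each being that of mouse 2, and both differences turned slightly positive without it.

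None of the textbook HIF-1 targets passed the threshold as lower after the inhibitor. Pfkfb4, given above, was the 1 of them that was lower without overlap, and its log2 fold change was −0.33 without treated mouse 2. For the others apart from Pdk1, log2 fold changes of treated OIR against OIR were 0.34 (SE 0.22) for Slc2a1, 0.36 (SE 0.24) for Pgk1, 0.17 (SE 0.16) for Ldha, 0.52 (SE 0.30) for Slc16a3, 0.33 (SE 0.26) for Hk2, and 0.29 (SE 0.24) for Pfkfb3. Without treated mouse 2 they were 0.03, 0.02, 0.06, 0.08, −0.07, and −0.07. For Eno2 and Pfkm the difference was 0.29 (SE 0.20) and 0.27 (SE 0.18), and 0.48 and 0.45 without that mouse. Hk2/Hk1 was the 1 isoform ratio of 12 without overlap, at 0.188, 0.212, and 0.157 in OIR and 0.282, 0.219, and 0.248 in treated OIR mice (exact permutation p = 0.1). With treated mouse 2 left out, which leaves 2 treated mice against 3 OIR mice, 8 of 12 ratios did not overlap, 6 of them higher. With so few mice, 17.1% of single genes were separated as lower and 16.1% as higher.

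**Figure D4:**
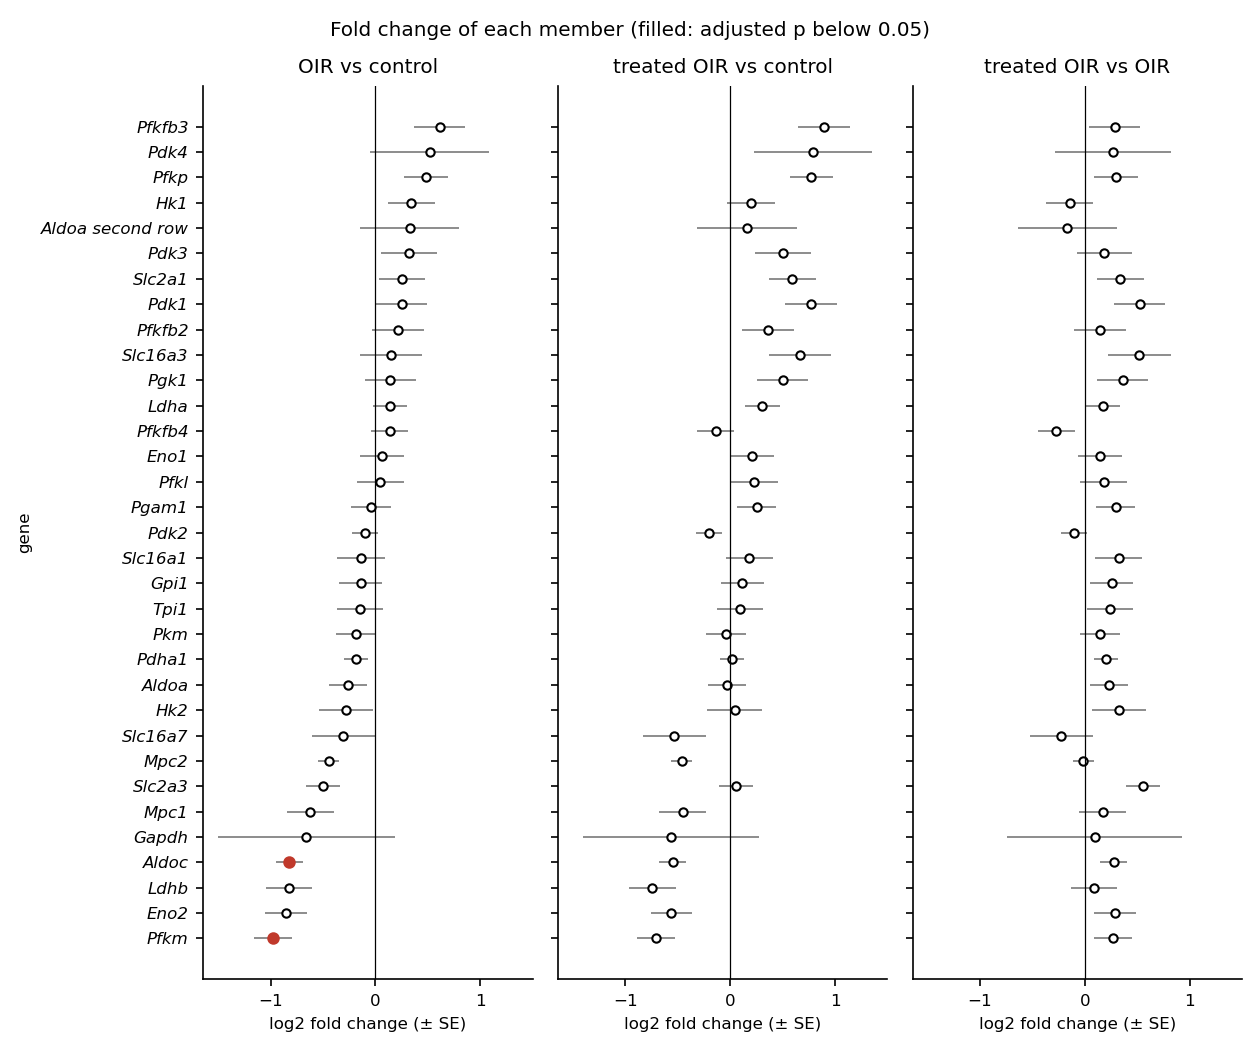
Log2 fold change ± SE from edgeR (horizontal axis) of each of the 33 rows (vertical axis, ordered by OIR against control) in the 3 comparisons, with filled red points for an adjusted p below 0.05. Only Aldoc and Pfkm are filled, both in OIR against control, and the points of treated OIR against OIR lie mostly between 0 and 0.5.

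The row of Gapdh, the dehydrogenase often used as a reference gene, varied far more than any other glycolytic enzyme. Its raw counts were 14830, 3601, and 8828 in control, 437, 9069, and 7903 in OIR, and 5102, 6291, and 2830 in treated OIR mice. OIR mouse 3 had 23.4 CPM and control mouse 7 had 569 CPM, and the fold change of OIR against control had an SE of 0.84 on the log2 scale (−0.66, edgeR adjusted p = 0.675). In GENCODE M21, 76 genes have a transcript that matches Gapdh at 95% identity or more over at least 300 bases, and 74 of them had counts. Their summed counts stayed between 1810 and 2958 in all mice, while their share of Gapdh and copies together ran from 16.6% to 83.6%. The neighboring steps did not share this spread, Tpi1 being 974 to 1110 CPM and Pgk1 792 to 936 CPM in the OIR mice. Gapdh and copies together had 2669, 11246, and 10099 counts in OIR mice 3, 5, and 6, and 17788, 5793, and 11057 in control mice 1, 6, and 7. Reads from Gapdh and its copies cannot be assigned with certainty from the table, and the Gapdh values are uncertain. The source of their spread was not tested. For Eno1, copies held 2.53% to 2.80% of the counts.

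**Figure D5:**
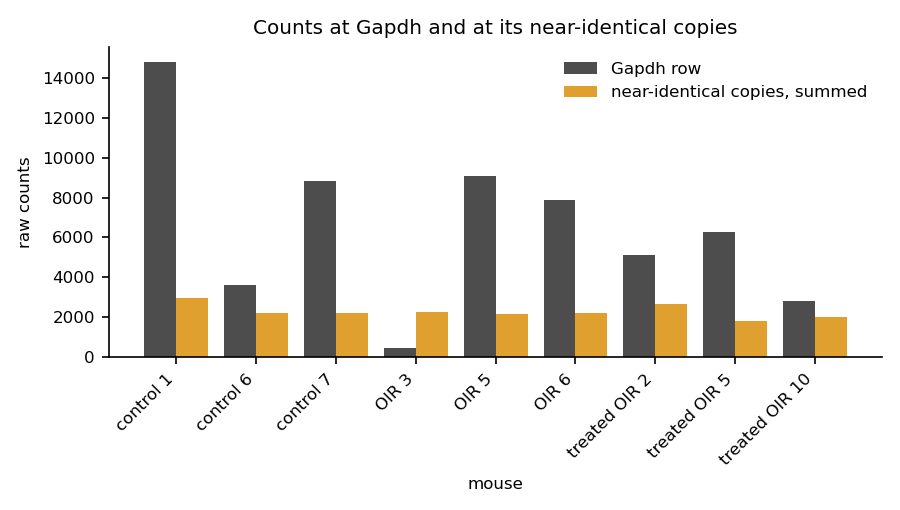
Raw counts (vertical axis, from 0) in each mouse (horizontal axis) at the Gapdh row and summed over its near-identical copies. The Gapdh row runs from 437 in OIR mouse 3 to 14830 in control mouse 1, whereas the copies lie between 1810 and 2958.

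Of 72 other genes of glucose metabolism, from the pentose phosphate pathway, glycogen, gluconeogenesis, the malate-aspartate shuttle, the pyruvate dehydrogenase complex, and further carriers, 65 were tested. In OIR against control, edgeR called 3 lower and 0 higher (0.941% of all genes were called), and the median log2 fold change was −0.02. Emb (embigin), a partner protein that carries lactate transporters to the cell surface, fell most clearly. Its log2 CPM was 5.23, 5.38, and 5.48 in control and 4.23, 3.74, and 4.09 in OIR mice (log2 fold change −1.34, SE 0.19, edgeR adjusted p = 0.0407). In treated mice 2, 5, and 10 it was 5.17, 4.56, and 4.75, above every OIR mouse (log2 fold change 0.82 against OIR, SE 0.18, edgeR adjusted p = 0.862, and 0.66 without treated mouse 2).

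Tkt, the transketolase that links the pentose phosphate pathway with glycolysis, was at a log2 CPM of 8.75, 8.75, and 9.05 in control and 7.95, 8.04, and 8.06 in OIR mice (log2 fold change −0.84, SE 0.13, edgeR adjusted p = 0.0407). Slc2a13, a carrier of myo-inositol, was 4.96, 5.28, and 5.25 in control and 4.20, 3.61, and 4.09 in OIR mice (log2 fold change −1.19, SE 0.21, edgeR adjusted p = 0.0447). Both kept clear of the control range in all OIR mice. In treated OIR mice Tkt was 8.10, 7.99, and 8.31, near the OIR values (log2 fold change 0.12 against OIR, SE 0.13, and 0.17 without treated mouse 2). Against OIR, Galm (−0.48, SE 0.17) and Taldo1 (−0.31, SE 0.12) had the next smallest p after Emb, both with an edgeR adjusted p of 1.

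Over the 9 mice, the genes whose log2 CPM followed Aldoc most closely, of 11083 compared, were Arl8a (Pearson r = 0.981), Paqr7 (0.977), Qdpr (0.975), Cadm4 (0.972), and Btbd2 (0.972). These r describe 9 mice that share the same 3 groups and libraries.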

How the data were processed

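Retinal RNA of 9 mice was sequenced, and mice were grouped by their labels. The authors deposited raw counts per gene as whole numbers, with gene lengths; CASAVA and HISAT are named in the submitters' processing notes, and the counting tool, annotation, and strand setting are not given in the sources used here. Of 54495 gene identifiers found in GENCODE M21, 53585 (98.3%) had the same position there, so coordinates are on GRCm38.

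Counts were analysed with edgeR 4.0.16 (TMM, default filter by group, quasi-likelihood test, all 9 mice, Benjamini-Hochberg adjustment over 17540 genes) in R 4.3.3, with DESeq2 1.42.0 and limma 3.58.1 as alternatives. A call is an adjusted p below 0.05. Log2 CPM used a prior count of 2. Isoform ratios were tested with scipy. The main edgeR fit and the DESeq2 and limma-voom fits on all 9 mice were tested on simulated counts, for OIR against control only. The simulation held no outlying library, and the other settings were not tested in this way. Named are all members, with values per mouse for those called, the 3 smallest p per comparison and direction, and both genes of the isoform pairs described. Other pathway genes are named where called or among the 3 smallest p, and the 5 genes most like Aldoc need a mean log2 CPM of at least 3. Members and lists were chosen with earlier results of these data known. With 3 mice a group, p-values measure the spread between these samples only, and 1 mouse was taken as 1 replicate.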

Additional observations from a re-analysis of the deposited data

How the results depend on the processing

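For OIR against control, 2 members were called. The number was 0 with a log2 fold limit of 1 added and with scaling by total counts alone (0.211% of all genes were called). It was also 0 with sex (inferred from Xist and Y-linked genes) as a covariate, where 0.00% of all genes were called. It was 5 with DESeq2 on all 9 mice (10.6% of all genes were called) and 9 with DESeq2 on the 2 groups (14.3%). With edgeR on the 2 groups it was 7 (10.3%), and with limma-voom 6 (13.1%), beside 0.941% of all genes in the main fit. Leaving out 1 mouse gave 0 to 7, the latter without treated mouse 2, where 12.5% of all genes were called. For treated OIR against control, 0 members were called by edgeR (0.0228% of all genes were) and 6 by DESeq2 on all 9 mice (4.66%). DESeq2 on the 2 groups called 2 (1.73% of all genes), and limma-voom called 2 (5.28% of all genes). The median member log2 fold change against control was -0.038 with limma-voom and ran from -0.0838 to 0.233 when 1 mouse was left out. For treated OIR against OIR it ran from 0.0610 to 0.267 when 1 mouse was left out, and 0 members were called in every fit. For OIR against control it ran from -0.164 to 0.0245, positive without control mouse 7. The causes were not tested. For OIR against control, 7 to 9 isoform ratios did not overlap when 1 mouse was left out. Leaving out a mouse cannot make separated groups overlap, so this number could only stay or rise and does not measure robustness. Adding a few counts to both forms, small beside their own counts, left the number within 1.5 times.

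Under at least 1 alternative, the fold change took the other sign for 5 of 33 rows in OIR against control, 12 in treated OIR against control, and 17 in treated OIR against OIR, and none of these was called in any fit of its comparison. Leaving out treated mouse 2 alone did so for 0, 7, and 10 rows. Among the 47 fold changes chosen for closer description, 4 did so, all in treated OIR against OIR. Hk2 was -0.0273 with limma-voom and ran from -0.0715 to 0.516 when 1 mouse was left out, Pfkfb3 from -0.0707 to 0.495, Pdk2 from -0.189 to 0.0281, and Slc16a7 from -0.587 to 0.0920, where the sign changed without treated mouse 2 and no other mouse. No paired analysis was possible because the labels give no pairing between mice of different groups.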
